A study of Mus musculus with 2 samples.

Results

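The 8 genes described here, *Tsc22d3*, *Zbtb16*, *Fkbp5*, *Per1*, *Sgk1*, *Klf9*, *Cebpd* and *Errfi1*, are genes that glucocorticoid hormones are known to induce in many tissues. They were taken by their symbols from the 32285 genes of both count matrices, and their levels are given in each cell class of the mouse femur in calcitriol-injected against untreated mice. These genes were chosen with their behaviour in these libraries already known, so the differences between the groups are described and not tested. Male C57BL/6J mice, 7 weeks old, were either untreated or injected intravenously with 2.5 μg/kg calcitriol, the active form of vitamin D, on each of 3 days. The femurs were collected when 24 h had passed since the last injection, and those of 6 mice were pooled for each group into 1 library, after the marrow had been flushed out, the bone digested with collagenase and EGTA, and CD45-positive blood cells depleted. Whether the untreated mice had an injection without the drug is not stated. If not, the injected mice differed from them by the injections as well as by the drug. These cannot be told apart here. With 1 library per group there is no replicate and therefore no test between the groups.

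Glucocorticoids, such as corticosterone in the mouse, are adrenal steroids that follow a daily rhythm and are released in stress. They bind the glucocorticoid receptor, the product of *Nr3c1*, which then enters the nucleus and binds palindromic DNA elements of the form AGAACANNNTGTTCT near the genes it induces. In bone, glucocorticoids act on osteoblasts, osteocytes and cartilage, and in excess they reduce bone formation. Each of the 8 genes also answers to other signals: *Per1* is part of the circadian clock, *Klf9* answers to thyroid hormone, and *Sgk1*, *Cebpd* and *Errfi1* answer to growth factors, cytokines or cell stress.

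Promoter windows of RefSeq on GRCm38.p6, each from 250 bases before to 50 bases after a transcription start, were found for 6 of the 8 genes in 15 windows, with none for *Zbtb16* and *Cebpd*. The whole palindrome, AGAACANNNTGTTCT, which reads the same on both strands, was present in 3 of 32851 windows of all genes (0.00913%), and 1 of the 3 was a window of *Sgk1* on the plus strand at chr10:21993640-21993939. There the element covered chromosome 10 positions 21993701 to 21993715, 189 bases before the start. The single arm AGAACA, searched on both strands and so also within the palindrome, was present in 19.0% of all windows and in 4 of the 15 windows, 3 of *Sgk1* and 1 of *Tsc22d3*. The *Sgk1* window is printed because it alone among the 15 held the palindrome; capitals mark the palindrome and each single arm.
*Sgk1* window: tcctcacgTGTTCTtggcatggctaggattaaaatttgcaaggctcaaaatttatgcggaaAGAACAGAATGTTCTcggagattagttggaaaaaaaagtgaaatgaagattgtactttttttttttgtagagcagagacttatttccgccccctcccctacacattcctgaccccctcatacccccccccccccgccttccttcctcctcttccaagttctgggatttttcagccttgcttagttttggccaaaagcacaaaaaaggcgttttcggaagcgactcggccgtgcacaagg
A match of letters is a description of the sequence and not a binding site shown in these cells.

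Cells were grouped by clustering, and clusters were named from marker genes, so the classes are called osteocyte-like and so on. The untreated library held 6076 barcodes and 70266983 unique molecular identifiers (UMIs, each a counted RNA molecule), and the calcitriol-injected library held 4562 barcodes and 60392557 UMIs. After filtering, 4436 and 3693 cells were kept, in 24 clusters, of which 2 stayed unnamed. Haemoglobin genes made up 41.2% of the UMIs in the untreated library and 10.6% in the other, and the erythroid-like class held 2307 and 434 cells. None of the 8 genes was among the 2000 variable genes used for clustering. Some defining markers lay far above the other cells: *Dmp1* stood at 1629 and 3472 CPM (UMIs of the gene per 1000000 UMIs) in osteocyte-like cells of the untreated and the calcitriol-injected library against 45.1 CPM in all other cells, and *Prg4* at 93692 and 167139 CPM in synovial lining-like cells against 5966 CPM. Others on the same lists did not. *Cd109* was at 141 and 132 CPM in osteocyte-like cells against 162 CPM in all other cells. *Pdgfrl* was at 40.7 and 41.1 CPM in fibroblast-like cells against 108 CPM, and *Car12* at 1.06 and 13.7 CPM in osteoblast-like cells against 7.68 CPM. Of the barcode sequences, 8 occurred in both libraries. Marker levels also differed between the groups within classes, as *Bglap* in osteoblast-like cells (9509 and 3439 CPM) and *Kera* in tendon-like cells (529.9 and 112 CPM). The chondrocyte-like name was not firm: its cluster led by *Msmp* and *Cytl1*, with 845 cells, met 4 chondrocyte markers against 3 of synovial lining.

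Levels are given as CPM of the summed UMIs of a class, with an exact 95% Poisson interval, and the groups are compared by the log2 ratio of calcitriol-injected over untreated with an exact conditional 95% interval. Both intervals describe the error of counting molecules and say nothing of differences from mouse to mouse. A ratio was counted where a gene had at least 50 UMIs in the class over both groups, and a gene was called higher or lower at 2-fold. Since reads came from the 3′ end of transcripts, levels are compared between cells and not between genes. In bulk sums over a class, more cells that make a transcript and more transcript per cell cannot be told apart.

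In the sum over all non-erythroid named cells, all 8 genes had higher levels in the calcitriol-injected library, with intervals above 0. *Zbtb16*, *Fkbp5* and *Tsc22d3* stood furthest apart, and *Per1* and *Klf9* least. *Zbtb16* and *Fkbp5* were past 2-fold, 2 of 8 genes against 2.40% of the 14043 genes counted, a share that is printed for comparison only, as the genes were chosen on this contrast. The median log2 ratio of the 8 genes was 0.67 and that of all counted genes -0.11. None of the 8 was 2-fold lower (3.61% of all genes). Over all cells together the log2 ratios ran from 0.71 for *Per1* to 1.98 for *Zbtb16*, 6 of 8 genes were past 2-fold against 10.5% of all genes (6.63% were 2-fold lower), and the smaller share of erythroid-like cells in the calcitriol-injected library went with these larger values, since all 8 genes were lowest in erythroid-like cells.

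**Figure D1:**
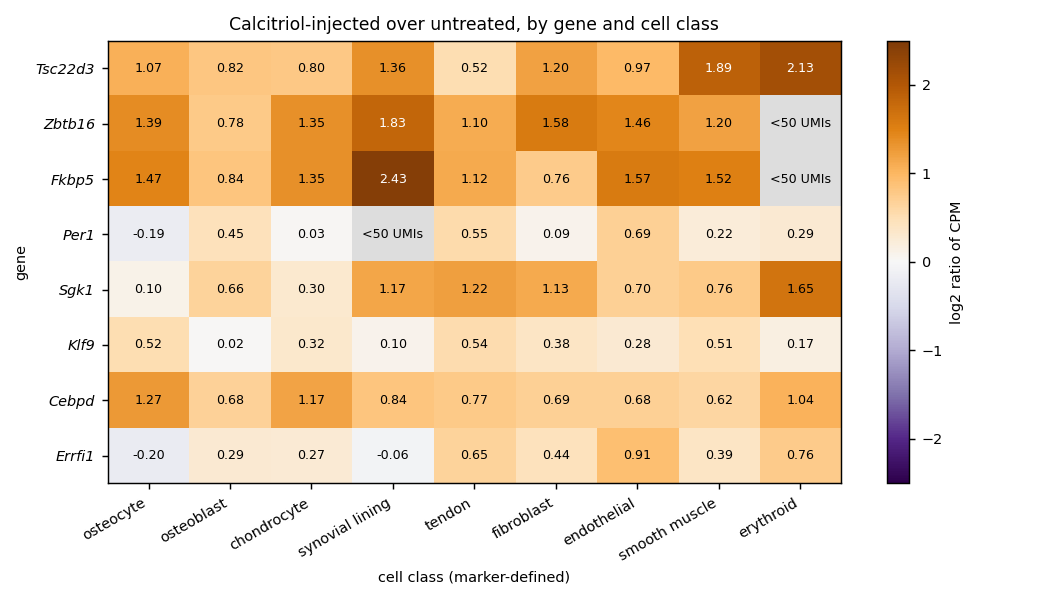
Log2 ratio of CPM, calcitriol-injected over untreated, for each of the 8 genes (rows) in each marker-defined cell class (columns, each standing for X-like cells); grey cells had under 50 UMIs. *Zbtb16* and *Fkbp5* were above 0.7 in every non-erythroid class shown, while *Per1*, *Klf9* and *Errfi1* stayed under 1 in every class shown.

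*Fkbp5* (chromosome 17, 28399094 to 28517527, minus strand) encodes a co-chaperone of the glucocorticoid receptor that lowers its affinity for hormone, and is induced by the receptor as a negative feedback. In endothelial-like cells it stood at 55.7 CPM (47.1 to 65.3, 151 UMIs) in the untreated library and at 166 CPM (152 to 181, 514 UMIs) in the calcitriol-injected library, a log2 ratio of 1.57 (1.31 to 1.84). In chondrocyte-like cells the levels were 34.4 and 87.9 CPM, a ratio of 1.35 (1.17 to 1.54). Smooth muscle-like cells held 14 and 45 UMIs, with levels of 19.3 and 55.3 CPM. The calcitriol-injected level was the higher one in all 8 non-erythroid classes, with every interval above 0, and 6 of the 8 were past 2-fold. The smallest ratios were 0.76 (0.59 to 0.93) in fibroblast-like cells and 0.84 (0.58 to 1.10) in osteoblast-like cells. The largest, 2.43 (1.28 to 3.90) in synovial lining-like cells, rested on 6 UMIs in 25 untreated cells, of which 50% came from 1 cell. The order of the classes differed between the libraries: in the untreated library fibroblast-like cells were highest (73.4 CPM) and their interval did not overlap that of the next class, and in the calcitriol-injected library endothelial-like cells were highest (166 CPM), again with no overlap.

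*Zbtb16* (chromosome 9, 48654297 to 48836222, minus strand) encodes a zinc finger transcription factor that glucocorticoids induce in many cell types. In fibroblast-like cells its level was 53.4 CPM (47.4 to 59.9, 286 UMIs) in the untreated library and 159.7 CPM (152 to 168, 1411 UMIs) in the calcitriol-injected library, a log2 ratio of 1.58 (1.40 to 1.77). In endothelial-like cells it was 50.1 and 138 CPM, a ratio of 1.46 (1.17 to 1.75). Chondrocyte-like cells had the lowest levels of the non-erythroid classes in both libraries, 14.4 and 36.7 CPM, with a ratio of 1.35 (1.07 to 1.64). The interval of osteocyte-like cells, the next class (14.7 and 38.5 CPM), overlapped theirs in both libraries. *Zbtb16* was past 2-fold in 7 of the 8 non-erythroid classes, the exception being osteoblast-like cells at 0.78 (0.49 to 1.07). In synovial lining-like cells the untreated level came from 14 UMIs, 35.7% of them in 1 cell. In the untreated library the intervals of smooth muscle-, fibroblast-, endothelial-, tendon- and synovial lining-like cells each overlapped that of the next class in the order. In the calcitriol-injected library fibroblast-like cells were highest, and their interval overlapped that of smooth muscle-like cells and of no other class.

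*Tsc22d3* (X chromosome, 140539528 to 140600659, minus strand) encodes the glucocorticoid-induced leucine zipper protein, which mediates anti-inflammatory effects of the hormone. Its level in fibroblast-like cells was 252 CPM in the untreated library and 579.6 CPM in the calcitriol-injected library, a log2 ratio of 1.2 (1.11 to 1.29). In smooth muscle-like cells it was 74.5 CPM (56.0 to 97.3, 54 UMIs) and 277 CPM (242 to 315, 225 UMIs), the largest ratio among non-erythroid classes at 1.89 (1.46 to 2.35). Tendon-like cells had the highest level in both libraries, 625 and 897 CPM, and the smallest ratio, 0.52 (0.46 to 0.59). All 9 classes had an interval above 0 and 5 were past 2-fold, erythroid-like cells included. Of these the osteocyte-like ratio, 1.07 (0.85 to 1.29), was -0.68 at a finer clustering (resolution 1.2), where the name covered 92 cells in place of 312. Within the endothelial-like class the clusters stood apart: the ratio was 2.17 in the *Ccl21a* and *Lyve1* cluster, whose markers are those of lymphatic vessels, 1.19 in the *Selp* and *Plvap* cluster and 0.21 in the *Flt1* and *Fabp4* cluster. In that last cluster *Fkbp5* had a ratio of 2.43.

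**Figure D2:**
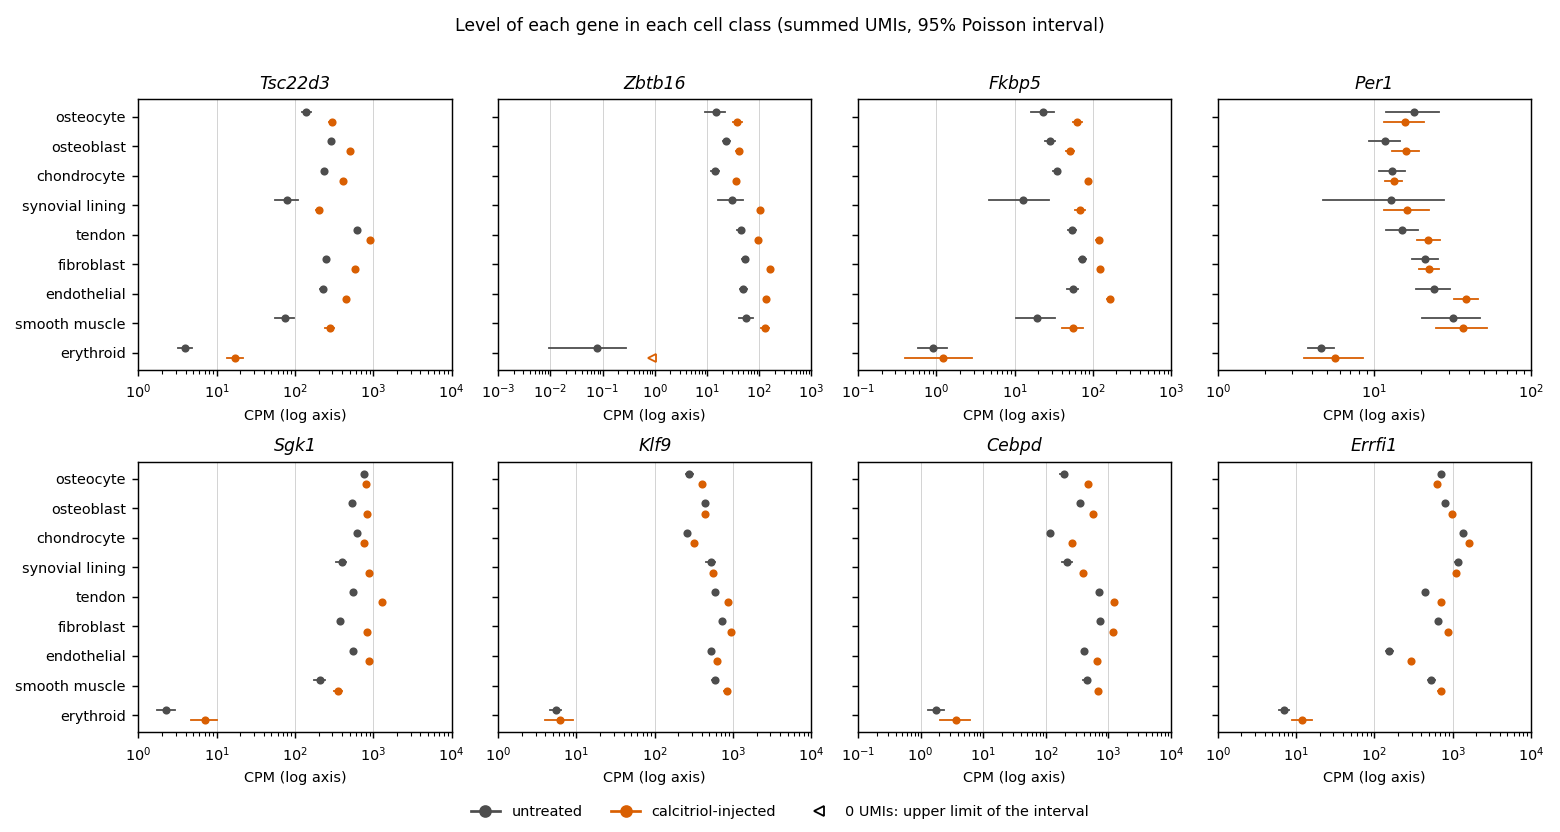
Level of each of the 8 genes as CPM on a log axis (x) in each cell class (y, each standing for X-like cells) of the untreated (grey) and calcitriol-injected (orange) library, with points for the class sum, lines for the 95% Poisson interval and an open triangle for the upper limit where no UMI was found. For *Fkbp5*, *Zbtb16*, *Tsc22d3* and *Cebpd* the orange points lie to the right of the grey ones in all 8 non-erythroid classes, and erythroid-like cells are lowest for every gene in both libraries.

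*Sgk1* (chromosome 10, 21882184 to 21999903, plus strand), the gene with the palindrome shown above, encodes a kinase that regulates ion channels and transporters. In tendon-like cells its level was 553 CPM in the untreated library and 1287 CPM in the calcitriol-injected library, a log2 ratio of 1.22 (1.16 to 1.28). In fibroblast-like cells the levels were 378 and 825 CPM, a ratio of 1.13 (1.06 to 1.2), and in synovial lining-like cells 393 and 886 CPM, a ratio of 1.17 (0.95 to 1.40). These 3 non-erythroid classes were past 2-fold, while chondrocyte-like cells had a ratio of 0.30 (0.26 to 0.35) and osteocyte-like cells of 0.10 (0.00 to 0.20). The chondrocyte-like clusters were both above the value of their sum, at 0.69 (0.60 to 0.78; 340.2 and 549.85 CPM) in the *Msmp* and *Cytl1* cluster, with 227 and 618 cells, and at 0.34 (0.28 to 0.39; 834 and 1053 CPM) in the *Fxyd2* and *Matn3* cluster, with 140 and 236 cells. Osteocyte-like cells had the highest level in the untreated library (761.9 CPM, no overlap with the next class). In the calcitriol-injected library tendon-like cells were highest. Osteocyte-like cells were 6th there (818 CPM), with an interval overlapping that of the fibroblast-like cells above them (825 CPM).

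*Cebpd* (chromosome 16, 15887286 to 15891031, plus strand) encodes a transcription factor of inflammation and early fat cell differentiation. Osteocyte-like cells had 192 CPM in the untreated library and 463 CPM in the calcitriol-injected library, a log2 ratio of 1.27 (1.09 to 1.46). Chondrocyte-like cells, the lowest non-erythroid class in both libraries, had 115 and 259 CPM, a ratio of 1.17 (1.07 to 1.28). The other 6 non-erythroid classes had ratios from 0.62 in smooth muscle-like cells to 0.84 in synovial lining-like cells, under 2-fold but each with an interval above 0. Fibroblast- and tendon-like cells had the highest levels in both libraries, with 733 and 707 CPM in the untreated one and 1181 and 1208 CPM in the other, and their intervals overlapped.

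*Errfi1* (chromosome 4, 150853919 to 150868892, plus strand) encodes an inhibitor of the epidermal growth factor receptor. It was highest in chondrocyte-like cells of both libraries, at 1355 and 1635 CPM, a log2 ratio of 0.27 (0.24 to 0.30). Endothelial-like cells, the lowest non-erythroid class, had 155 and 292 CPM and the largest ratio, 0.91 (0.74 to 1.08). It reached 2-fold in none of the 9 classes compared. Osteocyte-like cells had a lower level in the calcitriol-injected library, 628 against 719 CPM, a ratio of -0.20 (-0.30 to -0.09), the one interval below 0 among the 8 genes and 9 classes, and this ratio was -2.21 at the finer clustering (resolution 1.2). The interval in synovial lining-like cells spanned 0.

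*Klf9* (chromosome 19, 23141226 to 23168134, plus strand) encodes a transcription factor induced by glucocorticoid and thyroid hormone. Its ratios lay between 0.02 (-0.06 to 0.09) in osteoblast-like cells, with 432 and 437 CPM, and 0.54 (0.48 to 0.61) in tendon-like cells, with 584 and 851 CPM. It reached 2-fold in none of the 9 classes compared, and 6 of 9 intervals were above 0. *Per1* (chromosome 11, 69095217 to 69109960, plus strand) encodes a repressor of the circadian clock that glucocorticoid also induces. It gave few UMIs, 28 and 47 in osteocyte-like cells, and its intervals were wide. *Per1* intervals were above 0 in 3 classes, endothelial-like cells at 0.69 (0.24 to 1.15; 23.96 and 38.7 CPM), tendon-like cells at 0.55 (0.14 to 0.98) and osteoblast-like cells at 0.45 (0.01 to 0.89). The osteoblast-like ratio was -0.91 with each cell thinned to 2000 UMIs, when 4.02% of untreated and 1.83% of calcitriol-injected cells had a UMI. In chondrocyte-like cells, with 109 and 233 UMIs, the interval of the ratio was -0.30 to 0.37, so a 2-fold difference lay outside it in both directions.

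The number of the 8 genes past 2-fold is given for each class, with the share of all counted genes that were 2-fold higher and 2-fold lower given beside each count and nothing read from it. Osteocyte-like cells had 4 of 8 past 2-fold (4.80% of all genes higher and 2.83% lower), chondrocyte-like cells 3 of 8 (3.05% and 4.24%), tendon-like cells 3 of 8 (3.04% and 4.18%), fibroblast-like cells 3 of 8 (2.93% and 3.12%) and smooth muscle-like cells 3 of 8 (3.60% and 3.89%). Endothelial-like cells had 2 of 8 (1.90% and 2.48%), and osteoblast-like cells 0 of 8 (3.41% and 2.60%), although their largest ratios were 0.84 and 0.82 for *Fkbp5* and *Tsc22d3*. Synovial lining-like cells had 4 of the 7 counted (3.77% and 6.79%), and in this class scaling by the median of ratios raised all log2 ratios by 0.33, which put *Errfi1* at 0.27 in place of -0.06. None of the 8 genes was 2-fold lower in any of the 9 classes compared, erythroid-like cells included. The count was 0 in osteocyte-like cells at a finer clustering (resolution 1.2). With each cell thinned to 2000 UMIs it was 2 in synovial lining-like and 4 in endothelial-like cells. For these alternatives the share of all genes is not given. Schwann-like cells (16 and 20) and skeletal muscle-like cells (40 and 1) were too few to compare. In Schwann-like cells *Errfi1* (48 and 15 UMIs) had a log2 ratio of -2.23 (-3.17 to -1.37). *Tsc22d3* (10 and 82 UMIs) had one of 2.49 (1.53 to 3.60) there. Markers of other cells differed between the groups too: the summed level of 12 erythroid markers was lower in the calcitriol-injected library in 7 of the 8 non-erythroid classes, for example 27272 and 8976 CPM in fibroblast-like cells, and higher in synovial lining-like cells (1023 and 7151 CPM). The 9 neutrophil markers summed to between 0.64 and 127 CPM in the untreated and between 2.85 and 420.2 CPM in the calcitriol-injected library. *Lcn2*, one of the 9, is also a gene that glucocorticoids induce. It held 118 and 409 CPM of the endothelial-like sums of 127 and 420.2 CPM. In synovial lining-like cells the sums were 4.25 and 383 CPM, with *Lcn2* at 0 and 9.41 CPM. The 6 markers of T lymphocytes summed to at most 1.38 CPM. The part of all these markers in the ratios was not tested.

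The ratios were also taken in single clusters, over the 15 non-erythroid clusters with at least 20 cells in each library, 1 of them unnamed and led by *Chil1* and *Notum*. *Zbtb16*, *Fkbp5*, *Tsc22d3* and *Cebpd* were higher in the calcitriol-injected library in all 15, each time with an interval above 0. *Zbtb16* was past 2-fold in 12, *Fkbp5* in 9, *Tsc22d3* in 7, *Sgk1* in 6, *Cebpd* and *Errfi1* in 3, and *Klf9* and *Per1* in 1 each. The tendon-like clusters differed among themselves: *Tsc22d3* had a ratio of 0.19 in the *Igfbp2* and *Sfrp2* cluster and 0.72 in the *Angptl7* and *Kera* cluster, while *Sgk1* was at 1.21 and 1.24 in them. *Errfi1* had an interval below 0 in 2 clusters, the osteocyte-like one and the chondrocyte-like cluster led by *Msmp* and *Cytl1* (-0.04).

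**Figure D3:**
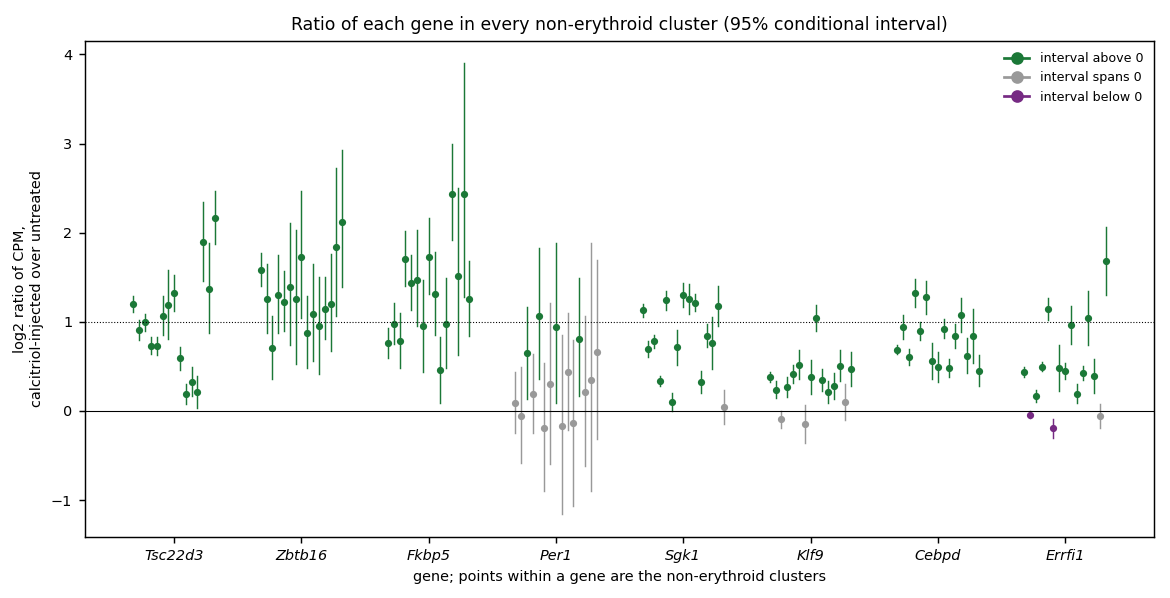
Log2 ratio of CPM, calcitriol-injected over untreated (y), of each of the 8 genes (x) in each of 15 non-erythroid clusters, with points for the cluster sums and lines for the 95% conditional interval; the dotted line marks 2-fold. All 15 points of *Tsc22d3*, *Zbtb16*, *Fkbp5* and *Cebpd* lie above 0 with their intervals, while those of *Per1* mostly span 0.

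Cells of different depth were also compared after each cell had been thinned to 2000 UMIs, leaving out shallower cells. The summed UMIs of the 8 genes per cell then had a median of 6 in 434 untreated and 10 in 656 calcitriol-injected fibroblast-like cells, 5 in 369 and 10 in 473 tendon-like cells, and 3 in 199 and 6 in 230 endothelial-like cells. In chondrocyte-like cells the medians were 5 in 363 and 6 in 847 cells. For *Zbtb16* the share of thinned fibroblast-like cells with a UMI was 9.0% (exact binomial 95% interval 6.5 to 12.1) in the untreated and 27.9% (24.5 to 31.5) in the calcitriol-injected library, against 37.8% and 71.7% before thinning. In osteoblast-like cells the thinned shares were 6.3% (4.0 to 9.4) and 7.0% (4.5 to 10.3), with overlapping intervals. These binomial intervals take each cell as a separate unit and say nothing of differences from mouse to mouse or between libraries. In erythroid-like cells, which should lack the gene, the thinned share was 0% in both libraries, with upper limits of 0.2% and 0.9%. Cells without a UMI of any of the 8 genes after thinning were 3.69% of untreated fibroblast-like cells and 0.15% of calcitriol-injected ones.

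In osteocyte-like cells the outcome depended on which cells were counted as osteocytes. Cells with a UMI of at least 2 of *Dmp1*, *Mepe* and *Phex*, 34 untreated and 79 calcitriol-injected cells, were set apart after the values were seen. In these, *Tsc22d3* was lower in the calcitriol-injected library, 103 CPM (116 UMIs) against 145 CPM (84 UMIs), a log2 ratio of -0.49 (-0.91 to -0.07), whereas in the remaining 62 and 137 cells it was 138 and 408 CPM, a ratio of 1.57 (1.30 to 1.84). *Sgk1* likewise had a ratio of -1.01 (-1.19 to -0.82) in the marker-bearing cells, with 872 and 434 CPM, and 0.59 (0.46 to 0.72) in the rest, and *Errfi1* one of -1.25 (-1.44 to -1.07) and 0.37 (0.23 to 0.51). *Fkbp5* at 1.07 (0.17 to 2.07) and *Cebpd* at 1.25 (0.89 to 1.62) had higher levels in the calcitriol-injected library in the marker-bearing cells too, and *Zbtb16*, with 7 and 32 UMIs, had too few there to be counted. Transcripts of other classes were present in both parts and differed between the untreated and the calcitriol-injected library. In the marker-bearing cells *Bglap* was at 3925 and 788 CPM, *Col2a1* at 7799 and 1336 CPM and *Prg4* at 36.1 and 1644 CPM. In the remaining cells *Bglap* was at 2338 and 1534 CPM, *Col2a1* at 10669 and 5027 CPM and *Prg4* at 138 and 1078 CPM. The part of these transcripts in the ratios was not tested. In the marker-bearing cells, leaving out the cell with the most UMIs of the gene in each library gave -0.42 for *Tsc22d3*, -1.115 for *Sgk1* and -1.22 for *Errfi1*.

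**Figure D4:**
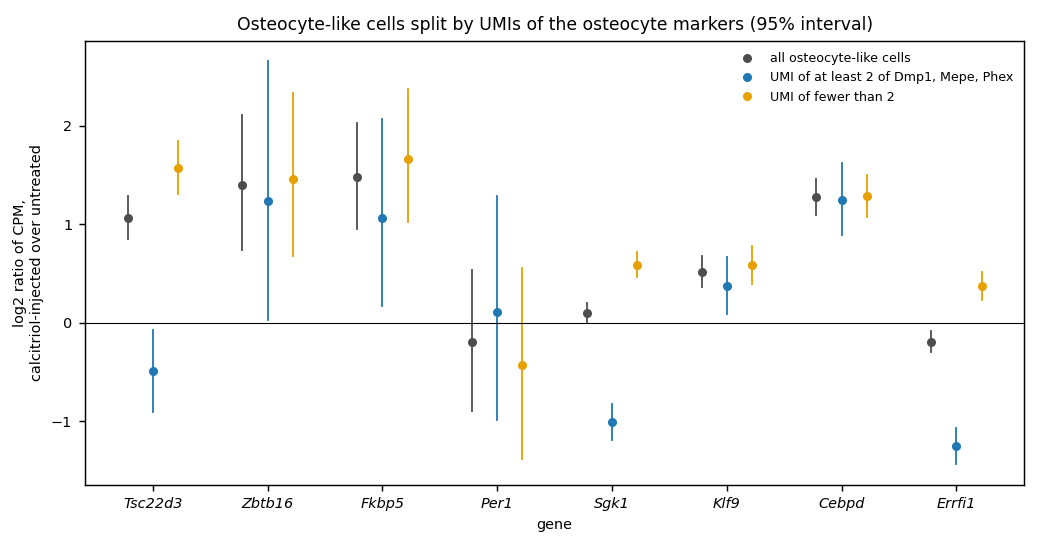
Log2 ratio of CPM, calcitriol-injected over untreated (y), of the 8 genes (x) in all osteocyte-like cells (grey), in those with a UMI of at least 2 of 3 osteocyte markers (blue) and in those with fewer (yellow), with 95% conditional intervals. *Tsc22d3*, *Sgk1* and *Errfi1* lie below 0 in the marker-bearing cells and above 0 in the others, while *Fkbp5* and *Cebpd* lie above 0 in both; *Zbtb16* had under 50 UMIs in the marker-bearing cells.

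In erythroid-like cells the 8 genes together had 659 UMIs in 2307 untreated and 217 UMIs in 434 calcitriol-injected cells, 26.0 and 53.0 CPM, and 3 of the 6 genes counted were past 2-fold against 1.30% of all genes (42.3% of all genes were 2-fold lower, with a median log2 ratio of -0.87). *Tsc22d3* stood at 3.95 CPM (100 UMIs) and 17.3 CPM (71 UMIs), a log2 ratio of 2.13 (1.67 to 2.59), *Sgk1* at 2.25 and 7.08 CPM, a ratio of 1.65 (0.95 to 2.32), and *Cebpd* at 1.78 and 3.66 CPM. The clusters of this class took different shares of the libraries: the one led by the histone genes *Hist1h2ae* and *Hist1h1b* had 747 cells in the untreated library and 62 in the calcitriol-injected one. Of the clusters led by *Bpgm* and *Hba-a2*, the larger held 174 and 144 cells and the smaller 198 and 10. In the histone cluster *Tsc22d3* had 66 and 37 UMIs, a ratio of 3.15 (2.53 to 3.75), while *Cebpd* had 29 and 0 UMIs. Markers of the other classes, which erythroid cells should lack, were read as the background. As a percentage of the level in the non-erythroid named cells of the same library, 7 of the 8 genes lay between 0% and 3.46%, and the summed markers of the 8 non-erythroid classes between 0.26% and 2.02%. Within the untreated library the highest marker sum was that of osteocytes (1.04%). Above it lay *Fkbp5* (2.08%, 23 UMIs), *Tsc22d3* (1.33%) and *Klf9* (1.16%). Within the calcitriol-injected library the highest marker sum was that of chondrocytes (2.02%), and *Tsc22d3* (3.46%) lay above it. *Per1* was the exception, at 28.6% (116 UMIs) in the untreated and 29.8% (23 UMIs) in the calcitriol-injected library, with a ratio of 0.29 (-0.42 to 0.95). Chondrocyte markers also stood higher in erythroid-like cells of the calcitriol-injected library, at 425 against 56.6 CPM, and osteoblast markers did not, at 82.99 against 86.6 CPM. For *Errfi1*, 51.4% of the untreated UMIs came from 1 cell.

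Genes that handle the hormone were read beside the 8. Like the 8 genes, this list and those that follow were chosen with earlier results of these data known. The shares of all genes beside their counts are therefore printed for comparison only. Of 11 genes of glucocorticoid receptors and steroid metabolism, 10 were counted in the non-erythroid named cells, 1 past 2-fold higher and 1 lower (2.40% and 3.61% of all counted genes), with a median log2 ratio of -0.37 against -0.11 for all genes. *Nr3c1*, the receptor, stood at 128 CPM (3957 UMIs) and 96.7 CPM (4720 UMIs), a ratio of -0.40 (-0.46 to -0.34), and it was detected in all non-erythroid classes, highest in endothelial-like cells (236 and 181 CPM). Its ratio was above 0 in osteocyte-like cells, 0.38 (0.00 to 0.77), and in smooth muscle-like cells, 0.31 (-0.15 to 0.78). In the other non-erythroid classes it was below 0, from -0.11 (-0.24 to 0.03) in chondrocyte-like to -0.52 (-0.65 to -0.39) in fibroblast-like cells. Erythroid-like cells had 12.9 and 6.10 CPM of *Nr3c1* (326 and 25 UMIs). Its ratio there was -1.08 (-1.73 to -0.49), where the median of all genes was -0.87. The mineralocorticoid receptor gene *Nr3c2* had 3.39 and 3.16 CPM, a ratio of -0.10 (-0.47 to 0.27). *Hsd11b1*, whose enzyme regenerates active glucocorticoid within cells, had 2.10 and 4.90 CPM, a ratio of 1.22 (0.82 to 1.64), and 146 of its 239 calcitriol-injected UMIs were in fibroblast-like cells. *Hsd11b2*, whose enzyme inactivates the hormone, had 37 and 9 UMIs, too few to count.

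The other genes that glucocorticoids induce, a list of 34, had 33 counted in the same cells, of which 11 were 2-fold higher and none lower (2.40% and 3.61% of all counted genes), with a median log2 ratio of 0.46. The highest were *Pdk4*, a kinase that restrains glucose oxidation, at 10.2 and 58.6 CPM with a ratio of 2.52 (2.35 to 2.69), and *Lcn2*, a secreted iron-binding protein, at 17.6 and 79.8 CPM with a ratio of 2.18 (2.05 to 2.32). *Lcn2* is also one of the neutrophil markers. The lowest were *Cdkn1c*, a cell cycle inhibitor, at 277 and 141 CPM with a ratio of -0.97 (-1.02 to -0.93), and *Dpp4*, a peptidase that is also a fibroblast marker, at 19.8 and 14.6 CPM with a ratio of -0.44 (-0.60 to -0.29). Class by class, 1 gene of this list was 2-fold lower in each of osteocyte-, chondrocyte-, synovial lining- and smooth muscle-like cells, against 9, 11, 10 and 3 higher. *Cdkn1c* was at -1.10 (-1.41 to -0.80) in osteocyte-like, -1.69 (-1.75 to -1.62) in chondrocyte-like and 0.73 (0.12 to 1.35) in smooth muscle-like cells. Of 19 genes that glucocorticoids repress, 18 were counted in this sum, none 2-fold higher and 3 lower (2.40% and 3.61% of all counted genes), with a median of -0.57. *Bglap*, the osteocalcin gene, had 2313 and 614 CPM, a ratio of -1.91 (-1.93 to -1.89), and *Igf1* had 269.5 and 74.2 CPM, a ratio of -1.86 (-1.92 to -1.81). The highest ratios of this list were those of *Mmp3*, a matrix protease, and *Il6*, a cytokine. *Mmp3* had 76.0 and 150.1 CPM, a ratio of 0.98 (0.91 to 1.05), and *Il6* had 81.6 and 132 CPM, a ratio of 0.70 (0.63 to 0.76). These sums join classes whose shares differed between the libraries, and the classes were not alike: *Mmp3* was at 2.06 (1.85 to 2.28) in osteoblast-like and -0.11 (-0.26 to 0.05) in chondrocyte-like cells, and *Il6* at 2.04 (1.47 to 2.67) in synovial lining-like, 1.06 (0.96 to 1.15) in fibroblast-like and -0.24 (-0.53 to 0.06) in chondrocyte-like cells. Repressed genes 2-fold higher and lower were 4 and 2 in osteocyte-like, 3 and 3 in osteoblast-like and 3 and 4 in chondrocyte-like cells. They were 3 and 3 in fibroblast-like, 2 and 1 in synovial lining-like and 1 and 3 in tendon-like cells. Endothelial-like cells had 1 and 4, and smooth muscle-like cells 0 and 2. Class medians ran from -0.45 in osteocyte-like to 0.04 in smooth muscle-like cells.

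**Figure D5:**
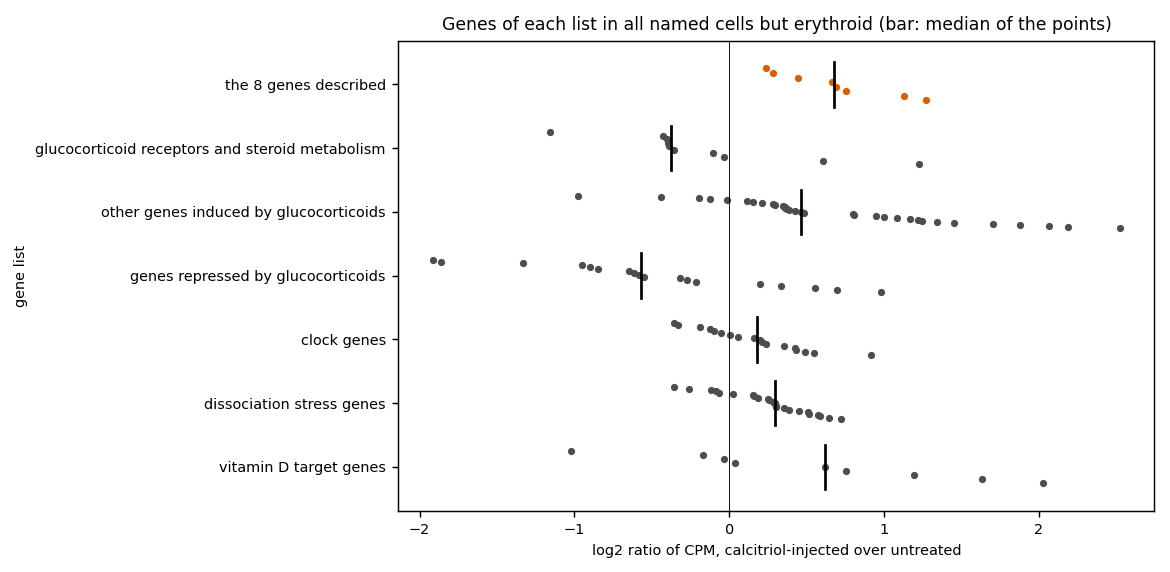
Log2 ratio of CPM, calcitriol-injected over untreated (x), of each gene with at least 50 UMIs in the non-erythroid named cells, by gene list (y); bars are medians of the points, and *Fgf23*, which had no untreated UMI, is not drawn. The 8 genes (orange) all lie above 0, the other induced genes mostly above 0 and the repressed genes mostly below 0. The sums join classes whose shares differed between the libraries. Within non-erythroid classes the medians of the repressed genes ran from -0.45 to 0.04.

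Clock genes and genes of dissociation stress were read because *Per1*, *Sgk1*, *Klf9* and *Cebpd* can move with them. The lists share genes: *Per1* itself is on the clock list, and *Nfil3* is on the clock list and the induced list. *Dusp1* and *Zfp36* are on the dissociation list and the induced list. Of 18 clock genes, all counted in the sum of the non-erythroid named cells, none was 2-fold different there (2.40% of all counted genes were higher and 3.61% lower), and the median log2 ratio was 0.18. *Per2*, a partner of *Per1* in the clock, had 5.33 and 10.0 CPM, a ratio of 0.91 (0.66 to 1.18), and *Cry2* 0.55 (0.45 to 0.64), while *Nr1d1*, a clock repressor, had -0.36 (-0.42 to -0.29) and *Clock* -0.33 (-0.43 to -0.24). Class by class, 1 clock gene was 2-fold higher in tendon-like cells (*Per2*, 1.25, 0.50 to 2.05), 1 in fibroblast-like cells (*Per2* again, 1.41, 0.61 to 2.29) and 1 was 2-fold lower in synovial lining-like cells, with none in the other non-erythroid classes. Of 25 genes that tissue dissociation induces, none was 2-fold different in the same sum (2.40% and 3.61% of all counted genes), and the median was 0.29. *Hspa1a*, a heat shock gene, had 248.9 and 410.3 CPM, a ratio of 0.72 (0.68 to 0.76), and *Nr4a1* 0.64 (0.60 to 0.69), while *Hspa8* had -0.26 and *Hspe1* -0.36. Class by class, 3 of the 25 were 2-fold higher in osteocyte-like, 2 in chondrocyte-like and 3 in synovial lining-like cells, 1 was 2-fold lower in smooth muscle-like cells, and none was past 2-fold in the other non-erythroid classes. *Hspa1a* was at 1.76 (1.53 to 1.995; 115 and 389 CPM) in osteocyte-like and 1.54 (1.46 to 1.61; 181 and 524 CPM) in chondrocyte-like cells, and at -0.04 (-0.17 to 0.09) in fibroblast-like cells. The part of the clock and of dissociation in the 8 genes' ratios was not tested.

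Vitamin D target genes had 10 of 12 counted, 4 past 2-fold higher and 1 lower (2.40% and 3.61% of all counted genes), with a median log2 ratio of 0.69. *Tmem252* had 6.20 and 25.3 CPM, a ratio of 2.03 (1.81 to 2.25), *S100g*, a calcium-binding protein, 1.63 (1.26 to 2.01), and *Slc8a1*, a sodium and calcium exchanger, -1.03 (-1.25 to -0.80). Of the calcitriol-injected UMIs of *Tmem252*, 1159 were in endothelial-like cells, where the ratio was 2.75, and in smooth muscle-like cells it was -0.70 (-1.46 to 0.05). *S100g* had 311 of its calcitriol-injected UMIs in fibroblast-like cells, with a ratio of 2.86 (2.28 to 3.50), and was at -0.94 (-1.64 to -0.26) in tendon-like cells. *Fgf23*, the phosphate-regulating hormone of bone, had 0 and 538 UMIs. The vitamin D receptor gene *Vdr* was unevenly spread over the classes named here, and its levels in the other classes are not given. It stood at 26.6 and 74.1 CPM in osteoblast-like cells and at 28.0 and 57.7 CPM in osteocyte-like cells. In endothelial-like cells it was at 0.74 and 1.93 CPM (2 and 6 UMIs), and in fibroblast-like cells at 0 and 2.83 CPM (0 and 25 UMIs). The paper also detected *Vdr* in a cluster of chondrocytes. In that cluster and in a cluster of osteoblasts it reported higher *Vdr* in the control group. The osteoblast-like values here ran the other way, and the paper's clusters were not matched to these classes. The paper also named *Vdr* among the genes increased by calcitriol in *Fgf23*-expressing osteocytes. The osteocyte-like values here were higher in the calcitriol-injected library too, without setting *Fgf23*-expressing cells apart. The paper's plots show values of single cells, and the values here are CPM of summed UMIs.

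All genes were then ranked by their lowest log2 ratio over the 8 non-erythroid classes, among the 3480 genes with at least 50 UMIs in each over both libraries. In synovial lining-like cells *Fkbp5* (6 and 161 UMIs) and *Zbtb16* (14 and 248 UMIs) met this limit only through the calcitriol-injected library. The 8 genes were chosen on this contrast, so their ranks are printed for comparison only. *Pdk4* was first, with ratios from 1.60 in osteocyte-like to 3.60 in tendon-like cells. *Zbtb16* was 4th and *Fkbp5* 5th, *Cebpd* was 8th and *Tsc22d3* 17th, followed by *Sgk1* at 95, *Klf9* at 175 and *Errfi1* at 617, while *Per1* had too few UMIs to be ranked. Also among the first 10 were *Gm10076*, *Tgfbr3*, *Dapk1*, *Mt2*, a metallothionein, and *Cirbp*, a cold-induced RNA-binding protein. In 193 of the 3480 genes every class was above 0. Likeness was taken as the Pearson correlation of log2(CPM + 10) over 20 points, each a named class in a library with at least 20 of its cells. Points share library and depth. Schwann-like cells entered only from the calcitriol-injected library and skeletal muscle-like cells only from the untreated one. Erythroid-like points were lowest for all 8 genes, and their part in r was not tested. *Fkbp5* was most like *Tsc22d3* (r = 0.89) and *Eif4b* (0.89), *Zbtb16* was most like *Asb7* (0.93) and *Hipk3* (0.93), and *Cebpd* was most like *Id3* (0.96) and *Zfp36l1* (0.96). *Tsc22d3* was most like *Zfp560* and *Phf21a*, *Per1* most like *Armc10* and *Rap2a*, *Sgk1* most like *Pfdn5* and *Jmjd1c*, *Klf9* most like *Kif1b* and *Bri3*, and *Errfi1* most like *Raph1* and *Rcn2*, with r between 0.90 and 0.98.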

How the data were processed

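Male C57BL/6J mouse femurs were measured by 10x Genomics 3′ single-cell RNA-seq, 1 pooled library per group. The authors mapped reads to mm10 and deposited UMI counts per gene and barcode (Cell Ranger 4.0.0; annotation release not given in the sources used here; the submitters' processing notes also name Seurat 3.2.2). Barcodes with at least 200 genes were clustered in each library, and clusters past all 3 limits (median above 10% mitochondrial UMIs, under 1000 genes, under 2000 UMIs) were left out (197 and 227 cells). The kept cells were integrated and clustered in Seurat 5.3.0 (2000 variable genes, 30 principal components, resolution 0.8). Barcodes scored as doublets (3.58% and 3.11%) were kept. Clusters were named from fixed marker lists, by a rule completed after the clusters were seen. Counts were summed per class and group, and intervals were exact (scipy 1.17.1); simulated counts tested the code. Coordinates are those of GENCODE on GRCm38. The members and lists were chosen with earlier results of these data known. Genes named from the lists are the 2 highest and 2 lowest ratios of each in the non-erythroid named cells. In the vitamin D list *Fgf23*, with no untreated UMI and so no ratio, took the place of 1 of the lowest. *Nr3c1*, *Nr3c2*, *Hsd11b1* and *Hsd11b2* are named besides. *Vdr* was chosen after its values were seen, as were the genes named in the osteocyte-like split. For each member the 2 genes most like it were named among 9765 genes with at least 500 UMIs, and 10 genes were taken by the lowest ratio over classes, of which 1 is not reported here. Alternatives changed the clustering, thinning, scaling, filters and doublets.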

Additional observations from a re-analysis of the deposited data

Results flagged for a closer look

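Barcodes left out of the classes also held UMIs of the 8 genes, at a higher level in the calcitriol-injected than in the untreated library. In barcodes with fewer than 200 genes the summed level of the 8 genes was 40.2 CPM (132 UMIs, exact Poisson 95% interval 33.6 to 47.7) in 642 calcitriol-injected barcodes, against 6.65 CPM (78 UMIs, 5.26 to 8.31) in 1443 untreated barcodes. In the cells of the clusters left out by the quality limits it was 2805 CPM (1856 UMIs) in 227 calcitriol-injected cells against 1320.4 CPM (721 UMIs) in 197 untreated cells. Both were singled out because they lie in data outside the main measurement and above the level of the untreated library. The share of all genes and the levels of other classes' markers are not given for these barcodes. The part of RNA carried over from other cells in these levels was not tested.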

How the results depend on the processing

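Of 1136 values recomputed under alternatives, 935 stayed within the counting interval of the value reported or, for counts, within 1.5 times of it, 199 moved further and 2 that were past 2-fold changed direction. Of the 935, 87 came from leaving the 8 genes out of the variable genes, where no value could move. Another 87 came from a limit of 10 UMIs in place of 50, which sets which ratios are counted and not their size. Both values that changed direction are *Tsc22d3* in osteocyte-like cells, which had a log2 ratio of -0.68 at a clustering resolution of 1.2 and of -0.49 in cells with a UMI of at least 2 of *Dmp1*, *Mepe* and *Phex* (an alternative chosen after seeing the data). The number of the 8 genes past 2-fold in osteocyte-like cells went from 4 to 0 and to 2 under these same alternatives. At resolution 1.2 the name covered 92 cells in place of 312. No cluster was named osteocyte-like without integration, or when a cluster past any of the 3 quality limits was left out. In all, 21 log2 ratios changed sign, of which 8 had been reported with an interval off 0. Besides *Tsc22d3* these 8 were, in osteocyte-like cells, *Sgk1* (-0.81 at resolution 1.2 and -1.01 in the marker-bearing cells), *Klf9* (-0.26 at resolution 1.2) and *Errfi1* (0.37 in cells with fewer markers), and after thinning *Per1* in osteoblast-like (-0.91) and *Klf9* in endothelial-like cells (-0.10). Thinning each cell to 2000 UMIs, which also leaves out shallower cells, gave 1 in place of 2 in all non-erythroid named cells, 2 in place of 4 in synovial lining-like cells and 4 in place of 2 in endothelial-like cells. The mean of the cells' own CPM gave 1 in place of 2 in the non-erythroid named cells. Totals without haemoglobin and mitochondrial genes gave 3 in place of 6 over all cells. Leaving out a cluster past any of the 3 quality limits gave 2 in place of 4 in synovial lining-like cells, a name that then covered 930 cells in place of 119, and 5 in place of 3 in erythroid-like cells, and the largest erythroid-like cluster alone, also chosen after seeing the data, gave 1. The synovial lining-like name also covered 842 cells with 20 principal components and 883 at resolution 1.2. The chondrocyte-like name covered 1221 cells in the main clustering. It covered 414 with that quality filter, 732 with 20 principal components and 420 at resolution 1.2. At resolution 0.5 it covered 1499 cells, and 1544 without integration. The share of all genes past 2-fold is not given under these alternatives, so a change in the 8 genes cannot be told from one in all genes. The cause of these shifts was not tested. *Fkbp5* and *Zbtb16* stayed above 0 in all 8 non-erythroid classes under the alternatives that could be computed, with lowest log2 ratios of 0.43 and 0.26 in osteoblast-like cells and 0.24 for *Zbtb16* in smooth muscle-like cells, all after thinning. Scaling by the median of ratios changed log2 ratios by -0.38 over all cells, 0.33 in synovial lining-like and 0.65 in erythroid-like cells, and by at most 0.10 in size elsewhere. Leaving the 8 genes out of the variable genes changed nothing, since none was among them.

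No library was left out, since each group has 1. No paired analysis was possible because each group is a single library with no replicate number. The injections and the drug, the pooling of mice and any difference in sampling time or handling between the libraries cannot be told apart from the group. Depth limited *Per1*, synovial lining-like cells (25 untreated cells) and erythroid-like cells most.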
